A study of Mus musculus with 12 samples.

Results

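The nucleoporins and nuclear transport receptors of C2C12 cells, a line of mouse myoblasts, are described here across 3 media. The genes were chosen by symbol from the authors' deposited table: names that start with Nup and a digit, Kpna, Kpnb, Ipo and a digit, or Xpo, and also Tpr, Ndc1, Pom121, Aaas, Seh1l, Ranbp2, Tnpo1, Tnpo2, Tnpo3 and Cse1l. The rule found 51 symbols in 50 of 26271 loci. Where a symbol had several rows, the rule would have taken the row with the highest summed value, but no symbol had more than 1. Ndc1 was not found under that name. The read-through symbol Nup62-il4i1 shares the row of Nup62.

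Cultures were kept for 24 h in a medium called high glucose here, whose sugar was 25 mM glucose, in low glucose, with 5 mM, or in galactose, where 10 mM of that sugar replaced glucose. All 3 media also held 1 mM pyruvate, 10% serum and 1% antibiotic, and the labels name no genetic change in any group. Each group had 4 polyA RNA libraries, 12 in all. The authors' deposited table gives 1 pooled value per group, in FPKM (fragments per kilobase of transcript scaled to mapped fragments, a level adjusted for gene length), with the authors' log2 fold change and q-value for each pair of groups. It lists no value per library, so values stand without SD or n, and the depth behind them is unknown. Whether a group's 4 libraries were separate cultures is not labelled, and the spread that the q-values measure may be technical.

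Values given as 3 numbers in a row are in the order high glucose, low glucose, galactose, and a pair of log2 changes is for low glucose and then galactose, each against high glucose. A locus was called higher or lower where the tool marked its test OK and the authors' q was below 0.05, and "rose" and "fell" are used of such calls only. The 3 comparisons share groups: a high value in low glucose raises the change from high glucose and lowers the change towards galactose. In bulk RNA, fewer cells of a type and less RNA per cell cannot be told apart. Of 6 myoblast markers, 5 were listed at 1 FPKM or more in every group, and their summed level was 746 FPKM in high glucose, 488 in low glucose and 394 with galactose. Adipocyte and endothelial markers were all below 1 FPKM. Of the blood markers, only Cd68 passed 1 FPKM, in a row combined with Eif4a1, and the pan-leukocyte gene Ptprc was listed at 0.00823, 0.00318 and 0.00340 FPKM. The fibroblast markers summed to 57.9, 39.8 and 32.6 FPKM, most of it Pdgfrb, with Thy1 and Tcf21 at 0. Against that sum, the fibroblast marker Fbln5 was listed at 3.96, 6.23 and 12.98 FPKM and was called higher in all 3 comparisons (log2 changes 0.66, 1.71 and 1.06, q = 0.000239 for each).

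Nuclear pores are protein channels through the nuclear envelope, built from many copies of each nucleoporin. Outer rings of the Y-shaped complex and an inner ring form the scaffold, flexible nucleoporins line the channel, filaments face the cytoplasm, and a basket faces the nucleus. Importins carry proteins with a nuclear localization signal inwards and exportins carry proteins and RNA outwards. The small GTPase Ran, bound to GTP in the nucleus, releases cargo from importins and joins exportins to theirs.

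Of the 50 loci, 47 had a test in all 3 comparisons. The others were Kpna7 and Nup62cl, listed at 0, and Nup210, a membrane nucleoporin known to be induced as myoblasts differentiate, listed at 0.00614, 0.00755 and 0.00766 FPKM in high glucose, low glucose and galactose. The 42 tested loci with a single symbol ranged from 4.10 FPKM (Kpna2) to 154 FPKM (Kpnb1) in high glucose, with a median of 24.5.

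From high to low glucose, nuclear pore and transport receptor genes were called higher and none was called lower. Of the 47 tested loci, 32 rose (68.1%), where 18.3% of all 14699 tested loci rose in the authors' deposited table. None of the 47 fell, where 18.2% of all tested loci did, and at an unadjusted p below 0.05 the counts were 34 higher and 0 lower. The shifts were small: the median log2 change was 0.24 over the 47 loci and 0.01 over all tested loci, and only Xpot and Ipo7 changed by at least 0.5.

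From high glucose to galactose, 23 of the 47 rose (48.9%) and 0 fell. All 14812 tested loci included 26.5% that rose and 24.8% that fell. At an unadjusted p below 0.05 the members' counts were 24 and 0, and their median log2 change was 0.15 beside 0.01 over all tested loci. From low glucose to galactose 5 rose (10.6%) and 9 fell (19.1%), where 17.4% of all 14495 tested loci rose and 16% fell. The shares for that last pair lie near the background. Its median log2 change was -0.05 over the members and 0.01 over all tested loci.

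The tested members with a single symbol were listed at 4.10 FPKM or more in high glucose. The shares were therefore also taken over loci whose larger group value was at least 4 FPKM. There 22.5% of 10979 loci were called higher in low than in high glucose, and 15.9% lower. From high glucose to galactose 31.4% of 11062 rose and 22.9% fell, and from low glucose to galactose 18.6% of 10880 rose and 15.7% fell.

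How the values are scaled bears on these directions. Summed over all loci, the authors' FPKM came to 548145 for high glucose, 582498 for low glucose and 617537 for galactose. Setting the sums equal lowers every log2 change, of members and other loci alike, by 0.09, 0.17 and 0.08 for low against high glucose, galactose against high glucose and galactose against low glucose. The members' median from high to low glucose then stays above 0, at 0.15, with 39 of 47 loci above 0. From high glucose to galactose it turns to -0.02, with 22 of 47 above 0, and all tested loci move to a median of -0.17. Relative to the median of all tested loci, the members' medians are 0.23, 0.15 and -0.06. This scaling cannot change those differences, because it moves both medians by the same amount.

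**Figure D1:**
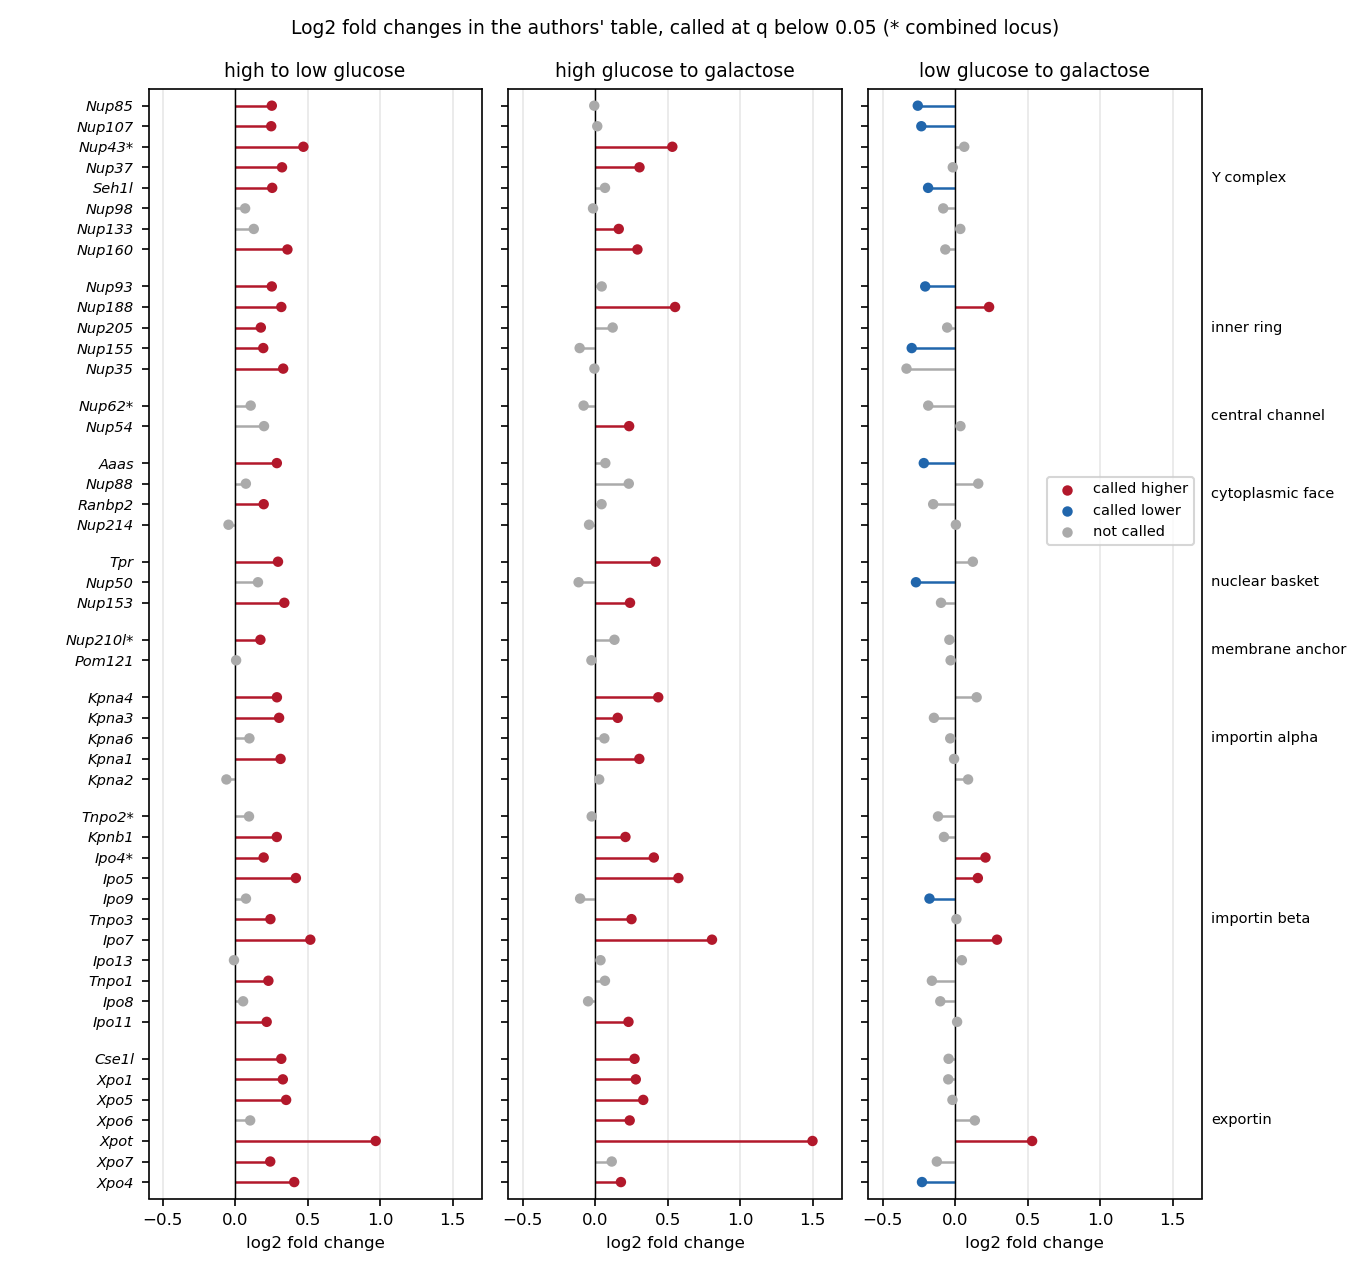
Log2 fold changes in the authors' deposited table for each tested member locus in the 3 comparisons; points are coloured by call at q below 0.05, and an asterisk marks a row combined with another gene. Changes from high to low glucose are mostly above 0, with 32 of 47 called higher, and Xpot lies farthest from 0 in all 3 panels.

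Of the 47 tested loci, 30 (63.8%) had their highest level in low glucose, 16 (34.0%) in galactose and 1 (2.13%) in high glucose. Over all loci tested from high to low glucose, these shares were 22.0%, 39.0% and 39.0%. Among pore proteins, 17 of 24 were highest in low glucose and 6 in galactose. Among transport receptors, 13 of 23 were highest in low glucose and 10 in galactose. Whether pore proteins and receptors differ in this was not tested.

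**Figure D2:**
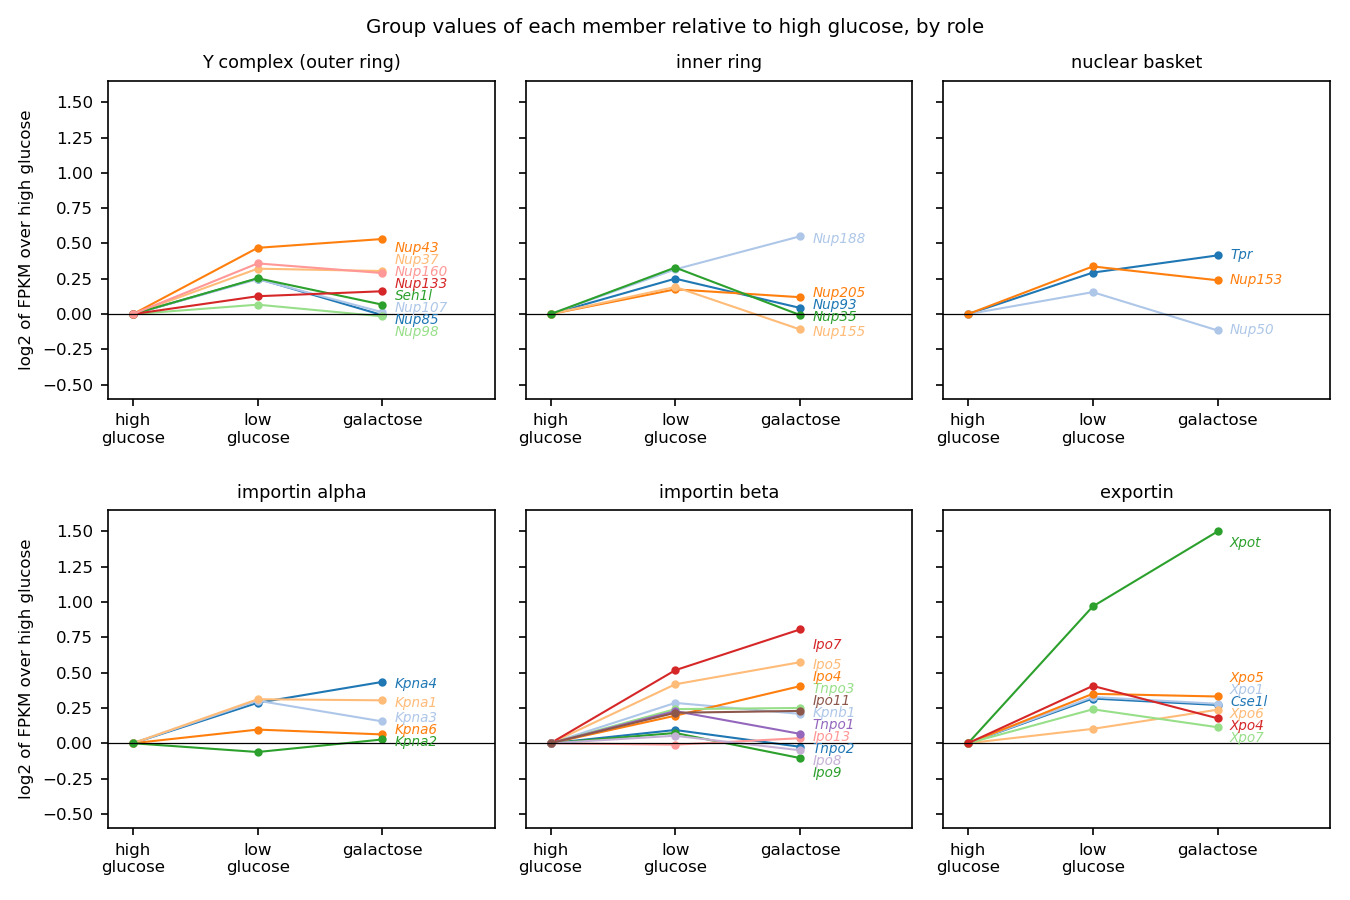
Level of each member relative to its level in high glucose (log2 of the FPKM ratio) in the 3 media, with 1 line per tested locus of 6 role groups (central channel, cytoplasmic face and membrane anchors are not drawn). Xpot and Ipo7 rise from medium to medium, while many pore proteins are highest in low glucose.

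Xpot, exportin-t, which carries mature tRNA out of the nucleus, moved most. Its gene lies at chr10:121587380-121626506. The authors' deposited table lists it at 23.7 FPKM in high glucose, 46.4 in low glucose and 67.1 with galactose. It rose 1.96-fold from high to low glucose (log2 change 0.97, q = 0.000239) and 2.83-fold from high glucose to galactose (log2 change 1.499, q = 0.000239). It was also called higher from low glucose to galactose (log2 change 0.53, q = 0.000239), and 0.000239 is the lowest q in the table. Xpot thus made up 14.6% of the summed FPKM of the 7 exportins in high glucose, 21.5% in low glucose and 28.7% with galactose.

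Xpot, Ipo7, Nup188 and Ipo4 (its row shared with Tm9sf1) are 4 of the 5 members called higher from low glucose to galactose, and each holds the letters CACGTG near its start in the RefSeq promoters of GRCm38.p6 (the build of the authors' mm10). CACGTG is the E-box that MYC and MITF-type factors are known to bind. The fifth gene, Ipo5, does not hold it in this window. The sequences are shown because they surround that match, with the E-box in capitals, 5′ to 3′ on the gene's strand, and the first pair holds no annotated exon. Xpot lies on the minus strand (chr10:121626507-121626582) and its E-box starts 231 bases before the start site used by the promoter table. Ipo7 lies on the plus strand (chr7:110018065-110018273) and its E-box starts 137 bases before the start site.
Xpot: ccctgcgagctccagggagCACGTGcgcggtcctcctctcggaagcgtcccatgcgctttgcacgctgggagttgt
Ipo7: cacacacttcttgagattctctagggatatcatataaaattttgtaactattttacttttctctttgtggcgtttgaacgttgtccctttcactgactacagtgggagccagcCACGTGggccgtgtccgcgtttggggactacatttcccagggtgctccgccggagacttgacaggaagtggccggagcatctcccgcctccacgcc

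Nup188 (plus strand) holds 2 E-boxes, 66 and 24 bases before its start site, printed as the windows chr2:30286338-30286367 and chr2:30286380-30286409. Ipo4 (minus strand) holds its E-box from base 15 after the start site, at chr14:55635653-55635682. The windows are 30 bases long, with the E-box in capitals.
Nup188, first: cacgcccaccatCACGTGgcggaagcccac
Nup188, second: gaggatcccagtCACGTGggtacggcgcat
Ipo4: tgtcggagtctcCACGTGccgatcctcccc

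Promoter windows of 300 bases, 250 before and 50 after the start site, were given for 39 members. CACGTG, read on both strands, occurred in 8 of them (20.5%) and in 8.09% of 27025 genes; these are Ipo4, Ipo7, Nup188, Nup54, Nup93, Ranbp2, Tnpo2 and Xpot. In all 9 motifs were searched, with results of these data known, and a match is a description only. The E-box was not the motif with the largest ratio of members to all genes. GCATGCGC, the core that NRF1 binds, occurred in 10.3% of members and 3.05% of genes, and AAGATGGC, a YY1 motif, in 10.3% and 3.19%. TGACGTCA, in 5.13% and 2.03%, had nearly the ratio of the E-box. GGGCGG occurred in 66.7% of members and 38.2% of genes, CCAAT in 53.8% and 41.1%, CCGGAAG, an ETS motif, in 17.9% and 9.93%, and TTTGAA in 23.1% and 20.2%. TGATGNAA occurred in 0 of 39 members and 4.51% of genes.

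Among tested members with a promoter entry, 6 of 8 with CACGTG and 16 of 28 without rose from high to low glucose, with median log2 changes of 0.22 and 0.20. From high glucose to galactose the counts were 5 of 8 and 13 of 28, with medians of 0.32 and 0.14. From low glucose to galactose they were 4 of 8 and 1 of 28, with medians of 0.12 and -0.04. In that comparison 1 of 8 with CACGTG fell (Nup93, log2 change -0.21), and so did 5 of 28 without. Of all tested loci, 18.3%, 26.5% and 17.4% rose in the 3 comparisons, and 18.2%, 24.8% and 16% fell. Nup54, Nup93, Ranbp2 and Tnpo2 hold CACGTG and did not rise from low glucose to galactose, and their sequences are not printed. The pair of low glucose and galactose was the base for showing the E-boxes, so it is given without a test. The other pairs hold the same genes and share groups with it, so they are a description only and no independent support. The rows of Ipo4 and Tnpo2 are combined with other genes.

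Of 7 exportins, 6 rose from high to low glucose and 6 from high glucose to galactose in the authors' deposited table (85.7% each). Their median log2 changes were 0.33 and 0.27. Of all tested loci, 18.3% and 26.5% rose in the same comparisons. Xpo1 (CRM1), the exportin of proteins with leucine-rich export signals, was listed at 33.9 FPKM in high glucose, 42.5 in low glucose and 41.1 with galactose, and rose in both media (log2 changes 0.33 and 0.28, q = 0.000239 for each). Xpo5, which exports precursor miRNAs, was listed at 28.9, 36.9 and 36.4 FPKM and rose by 0.35 and 0.33 (q = 0.000239 for each). Cse1l (CAS), which returns importin alpha to the cytoplasm, was listed at 39.5, 49.2 and 47.7 FPKM and rose by 0.32 (q = 0.00399) and 0.27 (q = 0.0138). Xpo1, Xpo5 and Cse1l were thus higher in both other media than in high glucose, and differed between low glucose and galactose by no more than 0.05 on the log2 scale.

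Xpo4, which exports eIF5A, had the second-largest change of the exportins in low glucose. It was listed at 5.60, 7.42 and 6.33 FPKM, rose by 0.41 from high to low glucose (q = 0.000239) and by 0.18 to galactose (q = 0.0301), and fell by 0.23 on the log2 scale from low glucose to galactose (q = 0.00540). Xpo7 was listed at 6.11, 7.22 and 6.61 FPKM and rose in low glucose (log2 change 0.24, q = 0.00161), with 0.11 in galactose (q = 0.172). Xpo6, the exporter of actin with profilin, was listed at 24.2, 26.0 and 28.6 FPKM, with a log2 change of 0.10 in low glucose (q = 0.283) and a rise of 0.24 in galactose (q = 0.00232). Whether these exportins differ from each other in their response was not tested.

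Among 11 importins of the beta family, 7 rose from high to low glucose (63.6%) and 6 from high glucose to galactose (54.5%), with none called lower in either. Of all tested loci, 18.3% and 26.5% rose in these comparisons, and 18.2% and 24.8% fell. Ipo7, which imports ribosomal proteins and histone H1 (gene at chr7:110018315-110056609), was listed in the authors' deposited table at 33.4 FPKM in high glucose, 47.8 in low glucose and 58.4 with galactose. It rose 1.43-fold and 1.75-fold from high glucose (log2 changes 0.52 and 0.81) and by 0.29 from low glucose to galactose, with q = 0.000239 in each. Ipo5, another importer of ribosomal proteins and histones, was listed at 60.8, 81.2 and 90.4 FPKM and rose by 0.42 and 0.57 (q = 0.000239 for each) and by 0.16 from low glucose to galactose (q = 0.0420). Both genes had their highest level in galactose.

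Ipo4, an importer of histones, was listed at 94.4, 108 and 125 FPKM in a row combined with Tm9sf1, so its share of those values cannot be told apart from that gene's. That row rose by 0.19 (q = 0.0148), 0.40 (q = 0.000239) and 0.21 (q = 0.00602) in the 3 comparisons. Ipo4 also shares 60.1% of its exon bases with a GENCODE gene on its own strand, Gm49378. Ipo11 was listed at 12.3, 14.3 and 14.4 FPKM and rose by 0.22 (q = 0.00494) and 0.23 (q = 0.00366). Tnpo3 (transportin-SR), the importer of SR splicing factors, was listed at 34.2, 40.5 and 40.7 FPKM and rose by 0.24 and 0.25 (q = 0.000858 for each).

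Kpnb1 (importin beta 1), the main partner of the importin alphas, had the highest level of the single-symbol members. It was listed at 154, 187 and 178 FPKM and rose by 0.29 (q = 0.000239) and 0.21 (q = 0.00646). Tnpo1 (transportin 1), the importer of hnRNP A1, was listed at 19.7, 23.1 and 20.6 FPKM and rose in low glucose (log2 change 0.23, q = 0.0220), with 0.07 in galactose (q = 0.558). Ipo9 was listed at 47.1, 49.5 and 43.8 FPKM. It passed the test only from low glucose to galactose, where it fell by 0.18 on the log2 scale (q = 0.0225).

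The other importins of the beta family passed no test. Ipo8 was listed at 16.2, 16.8 and 15.6 FPKM and Ipo13 at 24.9, 24.7 and 25.5 FPKM. Tnpo2 was listed at 504, 538 and 495 FPKM, in a row combined with Fbxw9 and 2310036O22Rik, and 10.9% of its exon bases lie opposite an exon of another gene. The labels and notes do not state whether counting used strand.

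The importin alphas bind the localization signal of the cargo and hand it to importin beta 1. Of 5 tested importin alphas, 3 rose in the authors' deposited table from high to low glucose and the same number rose from high glucose to galactose. These shares of 60.0% stand beside 18.3% and 26.5% of all tested loci, and they rest on few loci. Kpna4 had the highest level, at 33.5, 40.8 and 45.2 FPKM, and rose by 0.29 and 0.43 (q = 0.000239 for each). Its log2 change from low glucose to galactose was 0.15 (q = 0.0619). Kpna3 was listed at 22.9, 28.2 and 25.5 FPKM and rose by 0.30 (q = 0.000239) and 0.15 (q = 0.0492). With the sums of FPKM set equal, the galactose value of Kpna3 turns to -0.02. Kpna1 was listed at 11.5, 14.3 and 14.2 FPKM and rose by 0.31 and 0.30 (q = 0.000239 for each).

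Kpna6 was listed at 22.8, 24.3 and 23.8 FPKM and Kpna2 at 4.10, 3.93 and 4.18 FPKM, and neither passed the test in any comparison. Kpna2, which is often abundant in dividing cells, was the lowest of the tested importin alphas in each group. GENCODE lists 1 pseudogene named after Kpna2, and how reads that fit both were counted is not stated. By level the order in high glucose was Kpna4, Kpna3, Kpna6, Kpna1 and Kpna2, and no spread is listed that would show which neighbours differ. Kpna4 made up 35.3% of the summed FPKM of the importin alphas in high glucose, 36.6% in low glucose and 40.1% with galactose.

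**Figure D3:**
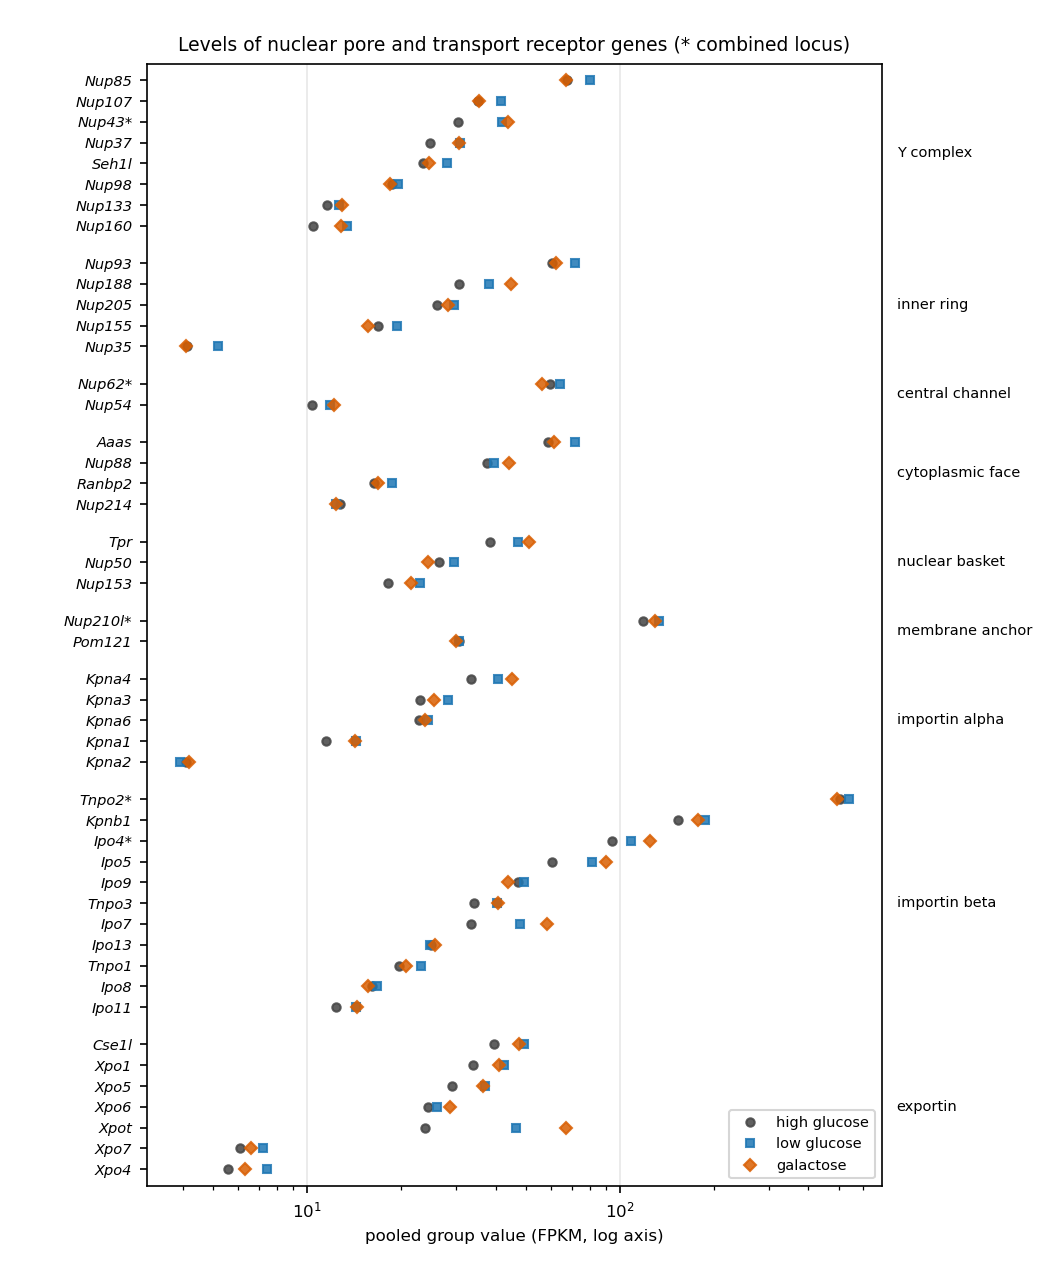
Level of each member in high glucose, low glucose and galactose, in FPKM on a log axis, grouped by role. Kpnb1 has the highest level among rows with a single symbol, and an asterisk marks rows combined with another gene, such as that of Tnpo2 at 504 FPKM in high glucose.

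Of 8 members of the Y complex, the outer ring of the pore scaffold, 6 rose from high to low glucose and 4 from high glucose to galactose, and 3 fell from low glucose to galactose. Nup85, the member with the highest level, had values of 67.4, 80.3 and 67.1 FPKM in the authors' deposited table in high glucose, low glucose and galactose. It rose by 0.25 in low glucose (q = 0.000659), its log2 change in galactose was -0.01 (q = 0.947), and from low glucose to galactose it fell by 0.26 (q = 0.000239). Nup107, listed at 35.1, 41.6 and 35.4 FPKM, rose by 0.25 in low glucose (q = 0.000239), with 0.01 in galactose (q = 0.903), and fell by 0.23 from low glucose to galactose (q = 0.000659). Seh1l was listed at 23.4, 27.96 and 24.6 FPKM and rose by 0.25 (q = 0.00317), with 0.07 in galactose (q = 0.532) and -0.19 from low glucose to galactose (q = 0.0401). In these 3 genes the low glucose value, as listed, stands above 2 values that lie close together. With the sums of FPKM set equal, changes from high glucose to galactose are lowered by 0.17, and each galactose value lies below that of high glucose.

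The other members of the Y complex passed no test between low glucose and galactose. Nup160, the lowest in high glucose and in galactose, was listed at 10.5, 13.4 and 12.8 FPKM and rose by 0.36 and 0.29 (q = 0.000239 for each). Nup37 was listed at 24.7, 30.8 and 30.5 FPKM and rose by 0.32 and 0.30 (q = 0.000239 for each). Nup43 was listed at 30.4, 42.1 and 44.0 FPKM in a row combined with Lats1, a kinase of the Hippo pathway, and that row rose by 0.47 and 0.53 (q = 0.000239 for each). Nup133 was listed at 11.6, 12.6 and 12.9 FPKM and passed in galactose (log2 change 0.16, q = 0.0415), with 0.13 in low glucose (q = 0.125). The galactose value turns to -0.01 with the sums of FPKM set equal. A share of 12.6% of the exon bases of Nup133 lies opposite an exon of another gene. Nup98, which is made from one precursor with Nup96 of the Y complex, was listed at 18.6, 19.5 and 18.4 FPKM and passed no test.

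All 5 inner ring genes rose from high to low glucose, and 1 of them (20.0%) rose in galactose. Of all tested loci, 18.3% and 26.5% rose in these comparisons. Nup93, which anchors the ring and had its highest level, had values of 60.5, 72.0 and 62.4 FPKM in the authors' deposited table. It rose by 0.25 (q = 0.000239), with 0.04 in galactose (q = 0.637) and -0.21 from low glucose to galactose (q = 0.00632). Nup155 was listed at 16.9, 19.3 and 15.7 FPKM, with a rise of 0.19 (q = 0.0117), -0.11 in galactose (q = 0.198) and -0.30 from low glucose to galactose (q = 0.000239). Nup188 was the ring gene that rose in galactose. Its gene lies at chr2:30286407-30344266. It was listed at 30.6, 38.1 and 44.8 FPKM and rose in all 3 comparisons, by 0.32, 0.55 (q = 0.000239 for each) and 0.23 (q = 0.00161).

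Nup205, a large scaffold protein related to Nup188, was listed at 26.0, 29.4 and 28.3 FPKM and rose in low glucose (log2 change 0.18, q = 0.0164), with 0.12 in galactose (q = 0.133). Nup188 made up 22.2% of the summed FPKM of the inner ring in high glucose, 23.3% in low glucose and 28.9% with galactose. The share of Nup205 was 18.8%, 17.9% and 18.2%. Nup35, the lowest of the ring, was listed at 4.13, 5.19 and 4.11 FPKM and rose in low glucose by 0.33 (q = 0.0398), with -0.34 from low glucose to galactose (q = 0.0711).

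The nuclear basket holds Tpr, its main filament protein, with Nup153 and Nup50. Tpr had values of 38.4, 47.1 and 51.2 FPKM in the authors' deposited table and rose by 0.29 and 0.42 (q = 0.000239 for each). Nup153, which ties Tpr to the pore, was listed at 18.1, 22.9 and 21.4 FPKM and rose by 0.34 (q = 0.000239) and 0.24 (q = 0.00161). Nup50, which helps to release import cargo, passed no test from high glucose. It was listed at 26.4, 29.4 and 24.3 FPKM, with 0.16 in low glucose (q = 0.0512), -0.12 in galactose (q = 0.164) and a call lower from low glucose to galactose (log2 change -0.27, q = 0.000239).

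On the cytoplasmic face, Aaas (aladin) had values of 58.8, 71.6 and 61.6 FPKM in the authors' deposited table and rose by 0.29 in low glucose (q = 0.00691), with 0.07 in galactose (q = 0.598) and a call lower from low glucose to galactose (log2 change -0.22, q = 0.0355). Ranbp2, the large filament protein that binds Ran and holds SUMO-modified RanGAP1, was listed at 16.3, 18.7 and 16.8 FPKM and rose in low glucose (log2 change 0.20, q = 0.00996), with 0.04 in galactose (q = 0.654). GENCODE lists 12 pseudogenes named after Ranbp2. The filament partners Nup214 (12.8, 12.3 and 12.4 FPKM) and Nup88 (37.6, 39.6 and 44.2 FPKM) passed no test.

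In the central channel, Nup54 had values of 10.3, 11.9 and 12.2 FPKM in the authors' deposited table and rose in galactose (log2 change 0.23, q = 0.0229), with 0.20 in low glucose (q = 0.0650). Nup62, its partner, was listed at 59.7, 64.2 and 56.4 FPKM in a row combined with Il4i1 and passed no test. Of the membrane anchors, Pom121 was listed at 30.5, 30.6 and 29.9 FPKM and passed none, and 11.8% of its exon bases lie opposite an exon of another gene. The row of Nup210l, at 118, 133 and 130 FPKM, is combined with the tropomyosin gene Tpm3. It rose in low glucose (log2 change 0.17, q = 0.0227), and how much of it is Nup210l cannot be told.

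Genes that drive and use this transport were taken from lists of the pathway that the symbol rule does not cover. The list called RAN cycle here also holds genes related by name or sequence, such as Rcc2 and Ranbp3l, so its shares are not of the cycle alone. In that list, 6 of 11 tested genes rose (54.5%) and 1 fell (9.09%) in low glucose against high glucose. With galactose against high glucose, 8 rose (72.7%) and 1 fell (9.09%). Of all tested loci, 18.3% rose and 18.2% fell in low glucose, and 26.5% rose and 24.8% fell with galactose. The genes that rose in both media include Ranbp1, whose row is combined with Dgcr8 (396, 503 and 510 FPKM). Ran had values of 143, 167 and 182 FPKM in the authors' deposited table and rose by 0.23 (q = 0.00382) and 0.34 (q = 0.000239). Rcc1, which loads Ran with GTP, was listed at 71.3, 113 and 129 FPKM and rose by 0.67 and 0.85 (q = 0.000239 for each). Rcc2, related to Rcc1 in sequence, was listed at 135, 187 and 255 FPKM and rose by 0.47, 0.92 and 0.45 (q = 0.000239 for each). Rangap1, which turns Ran off in the cytoplasm, was listed at 148, 154 and 165 FPKM and passed in galactose (log2 change 0.16, q = 0.0337), with 0.06 in low glucose (q = 0.493). The galactose value of Rangap1 turns to -0.01 with the sums of FPKM set equal.

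The gene of the list that fell was Ranbp3l, listed at 2.08, 0.159 and 0.0242 FPKM, with log2 changes of -3.71 (q = 0.000239) and -6.43 (q = 0.0375) in the authors' deposited table. Of 14 further pore proteins and adaptors, 7 rose from high to low glucose and 0 fell, and 7 rose and 1 fell from high glucose to galactose. Rae1, the partner of Nup98 in mRNA export, was listed at 25.5, 32.2 and 41.3 FPKM and rose by 0.33, 0.69 and 0.36 (q = 0.000239 for each). Rrp12 (18.3, 25.9 and 27.99 FPKM) and Nmd3 (28.5, 38.5 and 41.2 FPKM), adaptors of ribosomal subunit export, rose in both media from high glucose.

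Bulk mRNA export uses another receptor, Nxf1. Of 22 tested loci, 4 rose and 0 fell from high to low glucose, and 4 rose and 4 fell from high glucose to galactose in the authors' deposited table. Thoc6, among those that fell, is in a row combined with Tnfrsf12a, at 558, 612 and 496 FPKM. The share that rose from high to low glucose, 18.2%, lies at the 18.3% of all tested loci, and the shares in galactose, 18.2% each way, are below those of all tested loci. Nxf1 was listed at 32.6, 32.9 and 33.0 FPKM in a row combined with Tmem223 and passed no test. The RNA helicase gene Ddx39 was listed at 232, 282 and 326 FPKM and rose by 0.28 (q = 0.00334), 0.49 (q = 0.000239) and 0.21 (q = 0.0211).

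Genes of the nuclear lamina and envelope were called in both directions. Of 19 tested genes, 1 rose (5.26%) and 2 fell (10.5%) from high to low glucose in the authors' deposited table. Both shares are below those of all tested loci, 18.3% and 18.2%. From high glucose to galactose 4 rose (21.1%) and 7 fell (36.8%), where 26.5% of all tested loci rose and 24.8% fell. Lmnb2, a B-type lamin, was listed at 59.8, 47.3 and 38.6 FPKM and was called lower in all 3 comparisons (log2 changes -0.34, -0.63 and -0.29, q = 0.000239 for each). Lbr, the lamin B receptor, was listed at 31.1, 29.4 and 23.1 FPKM and was called lower in galactose (log2 change -0.43 from high glucose, q = 0.000239), with -0.08 in low glucose (q = 0.349). Lemd2, an inner membrane protein, was listed at 34.2, 35.1 and 47.6 FPKM and rose in galactose (log2 change 0.48, q = 0.000239).

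Genes of mitosis, when the pore is taken apart and rebuilt, were called lower more often than higher. Of 25 tested, 0 rose and 8 fell (32.0%) from high to low glucose in the authors' deposited table. From high glucose to galactose 0 rose and 20 fell (80.0%). From low glucose to galactose 2 rose (8.0%) and 15 fell (60.0%). Of all tested loci, 18.3%, 26.5% and 17.4% rose in the 3 comparisons, and 18.2%, 24.8% and 16% fell. The proliferation marker Mki67 was listed at 45.6, 41.5 and 24.6 FPKM, with log2 changes of -0.13 (q = 0.0920) and -0.89 (q = 0.000239) from high glucose. The part of cell division in the members' values was not tested, and neither was that of the lower myoblast markers, such as Myod1 at 154, 108 and 71.5 FPKM.

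**Figure D4:**
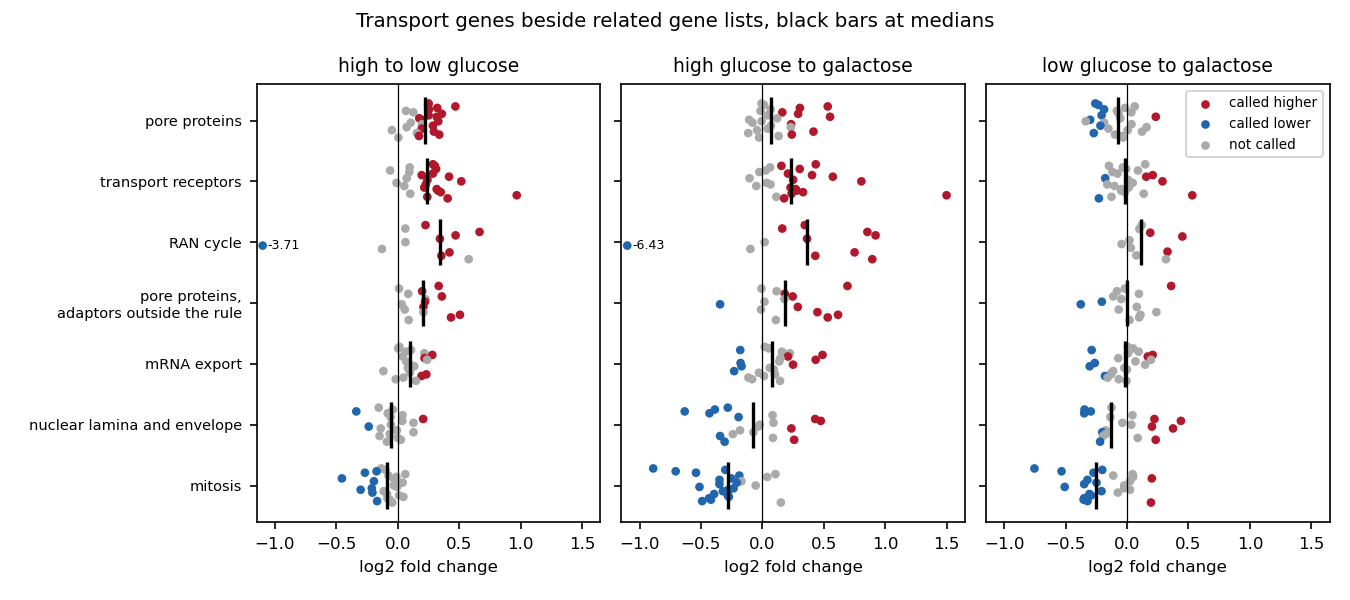
Log2 fold changes of the genes of each pathway list beside the members, in the authors' deposited table, for the 3 comparisons; points are coloured by call and black bars mark medians. In both comparisons with high glucose, members lie mostly above 0 and mitosis genes mostly below, and Ranbp3l is drawn at the edge with its value.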

How the data were processed

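PolyA RNA of C2C12 cells was sequenced in 12 libraries, 4 per medium (NEBNext Ultra kit, per the labels' protocols). Groups follow the sample labels, though the series' design text describes single muscle stem cells. The submitters' processing notes name Cuffdiff, Cufflinks 2.2.0, TopHat2 2.0.10 and the build mm10; the settings the authors chose are not given in the sources used here. The deposited table holds the authors' pooled FPKM per group, their log2 fold change (without a pseudocount), and their p-value and q-value. That log2 change equals the log2 ratio of the pooled values within 0.01 for all members, and differs by more at 25, 18 and 20 tested loci in the 3 comparisons. Recomputing the deposited q-value as a Benjamini-Hochberg adjustment over all 44006 tests gave a largest gap of 5.26e-07.

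The members, lists, motifs and tests were chosen with earlier results of these data known. Named were the 10 called members with the largest change per comparison, the highest and lowest of each role, a fixed set of members, and up to 3 called genes per pathway list, and the remaining members were added so that each is accounted for. Gene coordinates and promoters are RefSeq's for GRCm38.p6, with 50 members found by symbol; exon overlap and pseudogenes are from GENCODE M21. Alternatives are given in the closing section. Tools were numpy 2.4.6, pandas 2.3.3 and scipy 1.17.1 under Python 3.11.15, with figures by matplotlib 3.10.9.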

Additional observations from a re-analysis of the deposited data

How the results depend on the processing

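No paired analysis was possible because the authors' deposited table lists 1 pooled value per group, and for the same reason no library could be left out in turn. Requiring an absolute log2 change of at least 0.5 as well left 2 members called higher in low glucose and 5 in galactose against high glucose, and 1 higher and 0 lower from low glucose to galactose. Setting the sums of FPKM equal in all groups, chosen after seeing the data, turned the members' median from high glucose to galactose to -0.0175, and the values of Kpna3 to -0.0175 and of Nup133 to -0.0102. At q below 0.01, 6, 5 and 4 members lost their call in the 3 comparisons, and adjusting within each comparison ended that of Ipo5 from low glucose to galactose. A pseudocount of 1 FPKM and re-centring on the median of all tested loci turned no called member. Neither could, since a pseudocount keeps the sign of a change and re-centring moved values by only about 0.01. Leaving out combined loci, a minimum of 1 FPKM, and adding Tmem48 (an older name of Ndc1), Nupl1 and Nupl2, the last also chosen after seeing the data, kept the counts within 1.5 times. Depth is unknown, so no limit from counting can be given.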
